A study of Mus musculus with 4 samples.

Results

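Splicing factor genes encode the proteins that recognise exons and introns and join exons in nearly every transcript of the cell. They were followed in an RNA-Seq table of mammary tissue from 4 virgin females, of which 2 were miR-21+/+ and 2 were miR-21-/-. All were 2 months old and of the mixed background 129SV::FVB/N::C57BL/6. The miR-21-/- mice lack miR-21, and their wild-type counterparts served as controls. A gene was a member if its name in the table began with Srsf, Hnrnp, Sf3a, Sf3b or Snrp followed by its letters or digits. The imprinted gene *Snrpn* was left out by the same rule. This gave 48 genes among the 22479 gene names in the table, which has 30506 loci. They fell into 11 SR proteins, 18 hnRNP proteins, 8 subunits of SF3 and 11 snRNP proteins, and every one had a single locus of its name.

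Splicing is carried out by the spliceosome, which is built on each intron from small nuclear ribonucleoproteins (snRNPs), particles made of a small RNA and proteins. The U1, U2, U4 and U5 snRNPs share a ring of Sm proteins, to which each adds proteins of its own. SF3a and SF3b are the parts of the U2 snRNP that hold it at the branch point of the intron. SR proteins, which carry a domain rich in arginine and serine, mostly favour the use of the exons they bind. The hnRNP proteins coat newly made RNA, and many of them oppose the use of nearby splice sites. All of these genes are active in most cell types, so in a whole gland their RNA comes from epithelium, fat, stroma and immune cells together.

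The authors combined both mice of a genotype into 1 FPKM value per locus, a level in which the count of fragments is divided by the exon length and the library size. Such a value hides how far the mice of a genotype differed, so the genotypes were compared without replicates and without a test. Depth is unknown because the table has no read counts. Differences are plain log2 ratios of the FPKM value in miR-21-/- glands over that in miR-21+/+ glands. The targeted locus, listed as *Mir21* and *Vmp1* together, was at 42.5 FPKM in miR-21+/+ and 68.2 FPKM in miR-21-/- glands. It reports the host transcript and not the mature microRNA, which poly(A) libraries do not capture, so the genotype labels were not checked by it. The tissue label was checked by markers, and all 5 luminal epithelial, all 5 myoepithelial and all 5 adipocyte markers were above 1 FPKM in both genotypes.

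The level of the splicing factor genes was nearly the same in both genotypes as deposited. Summed over the 48 genes it was 3088 FPKM in miR-21+/+ and 3090 FPKM in miR-21-/- glands. These sums were 0.811% and 0.869% of the summed FPKM of named loci. Of the 47 members whose mean exceeded 1 FPKM, 0 differed by 1.2-fold or more in either direction, against 30% of the 13301 named loci above that level and 22.8% of the 6416 named loci above 10 FPKM, the range in which all 47 members lie. At the lower limit of 1.1-fold, 2 members differed, against 51.4% of the loci above 1 FPKM and 45% of those above 10 FPKM. Both members were higher in miR-21-/- glands, as were 21.7% of the loci above 1 FPKM at this limit. The members' log2 ratios ran from -0.12 to 0.18, with a median of 0.0046 and a median size of 0.052 regardless of sign. The median size was 0.14 for named loci above 1 FPKM and 0.12 for those above 10 FPKM, and their median log2 ratios were -0.026 and -0.038. In 35 of the 47 genes the values of both genotypes lay within 5% of each other, a limit at which named loci were not counted. As deposited, 26 members were above and 21 below a log2 ratio of 0, but with both columns scaled to equal sums over all loci, which shifts every log2 ratio by -0.63, all 47 were lower in miR-21-/- glands. This scaling is set by loci without a gene name. The ratios given here are best read against the median named locus, which shifts with the scaling. Equal sums over named loci gave the members a median log2 ratio of 0.10.

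**Figure D1:**
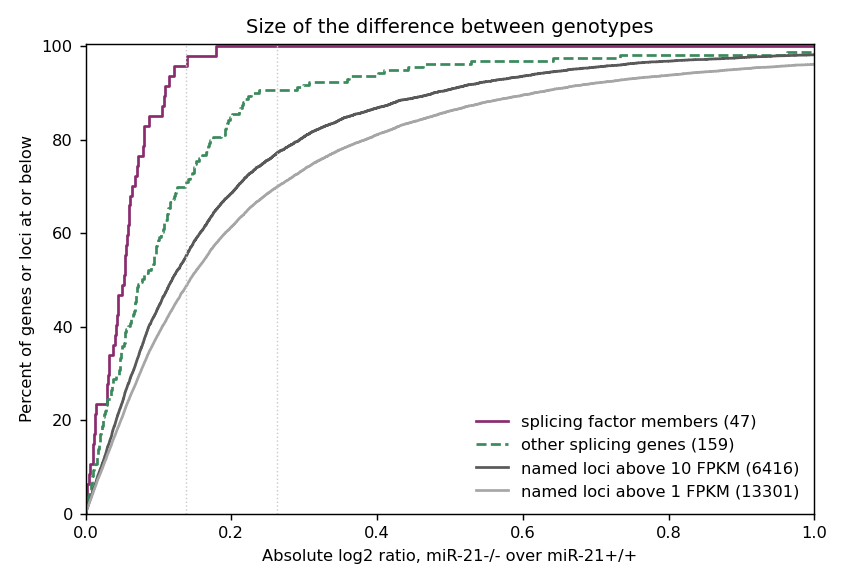
Percent of genes or loci (vertical axis) whose absolute log2 ratio of miR-21-/- over miR-21+/+ glands was at or below the value on the horizontal axis, which ends at 1. Dotted lines mark 1.1-fold and 1.2-fold. The curve of the 47 splicing factor members reaches 100% before the 1.2-fold line, where 30% of the 13301 named loci above 1 FPKM still lie beyond.

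Because miR-21 was the deleted gene, the members were searched for sites that it could pair with. The mature microRNA (RefSeq, GRCm38.p6) is shown with the seed, bases 2 to 8, in capitals.
mmu-miR-21a-5p: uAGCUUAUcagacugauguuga
A transcript site that pairs with the seed reads ATAAGCT (a 7mer-m8 site), and ATAAGCTA with an A opposite base 1 (an 8mer site). Such sites occurred in the longest annotated 3′ UTR of 7 of the 46 members above 1 FPKM that had one, or 15.2%, against 6.96% of 12835 genes above 1 FPKM. The members' 3′ UTRs had a median of 751 nt, against 1142 nt for those genes. The sites are shown on the transcript strand in windows of 22 nt from mm9, with the site in capitals.
Hnrnpa3, first site, chr2:75504970-75504991 (+): gtttttaaagtATAAGCTAaac
Hnrnpa3, second site, chr2:75506278-75506299 (+): gggtgtttgtcATAAGCTAgat
Hnrnpa3, last site, chr2:75506393-75506414 (+): gtatgactttaATAAGCTgttc
Hnrnph3, chr10:62477955-62477976 (-): gtttcaggaacATAAGCTAatt
Hnrnpk, chr13:58493076-58493097 (-): tcatgcttataATAAGCTtggg
Sf3a1, chr11:4081715-4081736 (+): agagtgtgttgATAAGCTgtaa
Snrpa1, chr7:73219274-73219295 (+): cagatgctctgATAAGCTctct
Srsf10, chr4:135424001-135424022 (+): gaaaacctgtgATAAGCTgatc
Srsf3, chr17:29178432-29178453 (+): tttgagacttcATAAGCTtggt

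The log2 ratios of the genes with these sites lay inside the members' range. *Hnrnpa3*, which has 3 of the sites in a 3′ UTR of 4025 nt, was at 234 FPKM in miR-21+/+ and 228 FPKM in miR-21-/- glands, a log2 ratio of -0.041. *Hnrnph3*, the only other member with an 8mer site, was at 18.7 and 17.7 FPKM (-0.078). *Srsf3*, whose site lies 87 nt into its 3′ UTR, had the highest log2 ratio of the 7 genes at 0.072, from 110 to 116 FPKM. The lowest was that of *Sf3a1*, at -0.087, from 11.0 to 10.4 FPKM. The other three, *Hnrnpk*, *Srsf10* and *Snrpa1*, had log2 ratios of 0.0017, 0.013 and -0.054. The median was -0.041 in the 7 members with a site and 0.0097 in the others, while over all genes above 1 FPKM it was -0.0084 with a site and -0.029 without. A site is a match of letters and does not show that miR-21 acts there.

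The hnRNP proteins were the most abundant class, with median levels of 82.9 FPKM (miR-21+/+) and 83.2 FPKM (miR-21-/-), compared per kilobase of exon. *Hnrnpa2b1* (chromosome 6 of mm9, 51382669 to 51433703), which encodes a core packaging protein of nuclear RNA, led all members at 281 FPKM in miR-21+/+ and 293 FPKM in miR-21-/- glands. *Hnrnpk*, which binds runs of cytosines, was at 183 FPKM in wild-type and 184 FPKM in miR-21-/- glands. Other members of the A/B family spanned a wide range, from *Hnrnpa3* down to *Hnrnpa0* at 49.9 and 49.4 FPKM. *Hnrnpa1*, a repressor of many exons, was at 125 and 116 FPKM, a log2 ratio of -0.11. Summed over the 5 genes of the A/B family the level was 764 FPKM in miR-21+/+ and 763 FPKM in miR-21-/- glands.

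Within the H/F family, whose proteins bind runs of guanines, *Hnrnph1* was at 140 and 143 FPKM and *Hnrnph3* was lowest, so that the family spanned 7.52-fold in wild-type and 8.12-fold in miR-21-/- glands. The highest log2 ratios of the class were those of *Hnrnpr*, at 0.14 (from 21.8 to 24.0 FPKM), and *Hnrnpab*, at 0.064 (from 73.7 to 77.0 FPKM). *Hnrnpr* was 1 of the 2 members past 1.1-fold. The lowest was that of *Hnrnpd*, also known as AUF1, which binds AU-rich elements of unstable messenger RNAs. It was at 38.2 and 35.3 FPKM, a log2 ratio of -0.11. The median log2 ratio of the 18 hnRNP genes was 0.0039.

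**Figure D2:**
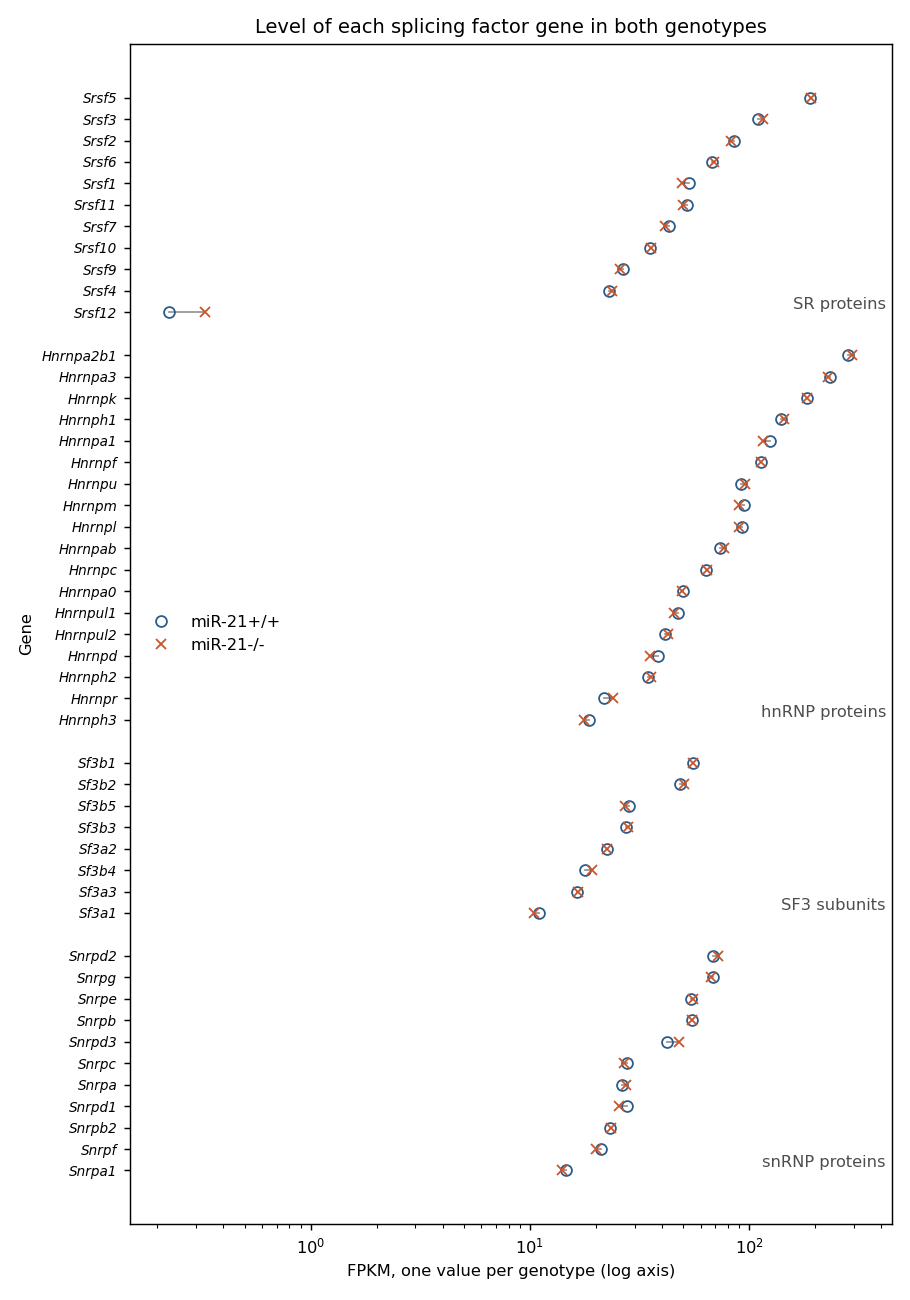
FPKM values (horizontal log axis, one value per genotype) of the 48 splicing factor genes (vertical axis), grouped by class and sorted by mean level. Circles are miR-21+/+ and crosses miR-21-/- glands, and for all genes but *Srsf12*, at 0.227 and 0.329 FPKM, the symbols lie close together.

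Among the SR proteins, *Srsf5* (chromosome 12, 82046482 to 82051495) was the most abundant, at 190.2 FPKM in miR-21+/+ and 190.4 FPKM in miR-21-/- glands. *Srsf3*, the smallest member of the family, followed, and *Srsf2*, also known as SC35 and used to mark nuclear speckles, was at 85.7 and 82.3 FPKM. The lowest log2 ratio was that of *Srsf1*, the founding member also known as ASF/SF2, at -0.11, from 53.2 to 49.3 FPKM. *Srsf11* was next, at 52.0 and 49.7 FPKM (-0.068). *Srsf4* had a log2 ratio of 0.043, from 22.9 to 23.6 FPKM. The 10 genes above 1 FPKM ran from the ratio of *Srsf1* to that of *Srsf3*, with a median of -0.020.

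*Srsf12* stood apart from the class, at 0.227 FPKM in miR-21+/+ and 0.329 FPKM in miR-21-/- glands. It was the only member under the minimum of 1 FPKM and the only one whose ratio, 1.45, passed 1.2-fold. The number of reads behind this ratio is unknown. The next lowest member of the 48, *Sf3a1*, was at 11.0 FPKM in miR-21+/+ glands.

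The snRNP proteins were lower than the hnRNP proteins, with median levels of 27.7 FPKM (miR-21+/+) and 27.3 FPKM (miR-21-/-). The 7 proteins of the Sm ring, of which each ring holds a single copy, did not have equal transcript levels. *Snrpd2* was at 68.5 and 71.9 FPKM and *Snrpg* at 68.1 and 66.7 FPKM, while *Snrpf* was lowest at 21.2 and 20.0 FPKM. The highest Sm level was 3.24 times the lowest in wild-type and 3.59 times in miR-21-/- glands. Between these lay *Snrpb*, at 54.6 and 55.0 FPKM, and *Snrpe*, at 54.4 and 55.6 FPKM.

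*Snrpd3* and *Snrpd1*, which encode Sm D3 and Sm D1, were the members with the highest and the lowest log2 ratio of all 47. *Snrpd3* (chromosome 10, 74980308 to 75000945) was at 42.3 FPKM in miR-21+/+ and 47.9 FPKM in miR-21-/- glands, a log2 ratio of 0.18. *Snrpd1* was at 27.7 and 25.5 FPKM, a log2 ratio of -0.12. With both columns scaled to equal sums over named loci, which adds 0.099 to every log2 ratio, *Snrpd3* was the only member past 1.2-fold. Named loci were not counted under this scaling. Summed over the Sm ring, the level was 337 FPKM in miR-21+/+ and 343 FPKM in miR-21-/- glands. The member rule picks 2 of the proteins particular to the U1 snRNP, *Snrpa* at 26.3 and 27.3 FPKM and *Snrpc* at 27.6 and 26.8 FPKM. *Snrnp70*, a further U1 protein that is no member, was at 88.7 and 102 FPKM, so that the 3 genes spanned 3.37-fold and 3.81-fold. Of the proteins particular to the U2 snRNP, the members outside SF3a and SF3b were *Snrpb2*, at 23.2 and 23.4 FPKM, and *Snrpa1*, at 14.6 and 14.1 FPKM.

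**Figure D3:**
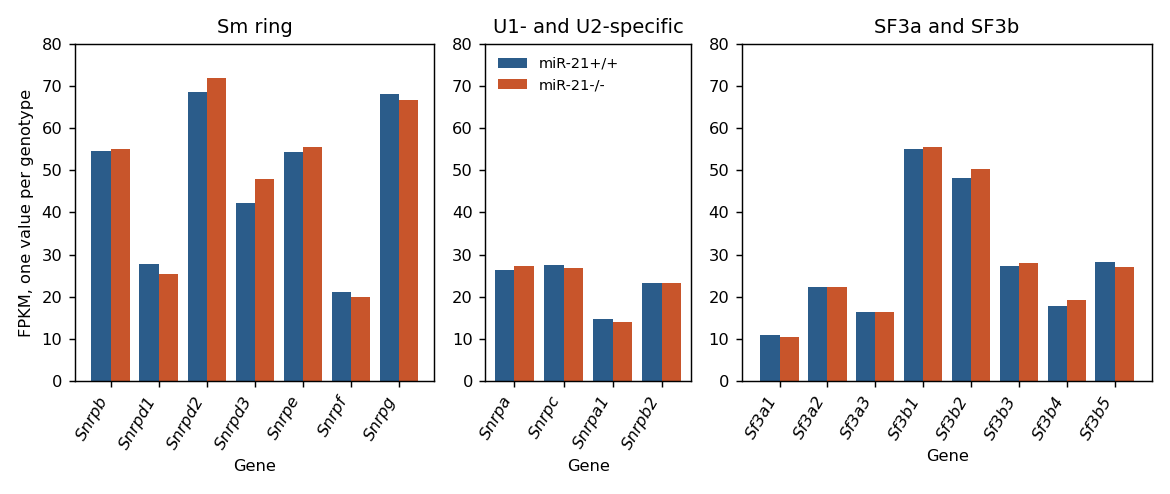
FPKM values (vertical axis, one value per genotype) of the members in the Sm ring, of those particular to the U1 and U2 snRNPs, and of those in SF3a and SF3b. Blue bars are miR-21+/+ and orange bars miR-21-/- glands. Levels differ up to 3.59-fold within the Sm ring of a genotype, and by at most 1.13-fold for a gene between genotypes.

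The subunits of SF3 also differed more among themselves than between genotypes. *Sf3b1* (chromosome 1, 55042013 to 55084363), which encodes the large scaffold of SF3b, was at 55.2 FPKM in miR-21+/+ and 55.6 FPKM in miR-21-/- glands. *Sf3b2* was at 48.2 and 50.3 FPKM, and *Sf3b5*, the smallest subunit of these, was at 28.3 and 27.2 FPKM. *Sf3b4*, whose protein contacts the intron near the branch point, was at 17.8 and 19.1 FPKM, the highest log2 ratio of the class at 0.11. Levels spanned 3.10-fold in the 5 members of SF3b and 2.03-fold in the 3 genes of SF3a in miR-21+/+ glands, and 2.91-fold and 2.16-fold in miR-21-/- glands. With *Phf5a*, a subunit of SF3b outside the member rule at 12.4 and 11.2 FPKM, these 6 genes of SF3b spanned 4.44-fold and 4.98-fold. The median log2 ratio of the 8 genes was 0.0085.

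The order of the members by level was nearly kept between genotypes. Across the 47 genes, Spearman's rho of their levels in both genotypes was 0.994 and Pearson's r of the log2 levels was 0.998. These points are genes of the same libraries and not independent replicates. Their levels spanned 11.0 to 281 FPKM in miR-21+/+ glands, and so wide a spread by itself makes such values high. The same values were not computed over all named loci. No gene moved by more than 4 ranks, and 9 of the 10 highest genes were shared. The 5 highest genes, *Hnrnpa2b1*, *Hnrnpa3*, *Srsf5*, *Hnrnpk* and *Hnrnph1*, held 33.3% of the summed level in wild-type and 33.6% in miR-21-/- glands. The median member, at a mean of 49.3 FPKM, stood above 94.4% of all named loci. These include loci under 1 FPKM, and the median mean of the named loci above 1 FPKM was 9.47 FPKM.

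Some of these values may hold reads of other genes. The table gives 5 members as a locus merged with another gene: *Hnrnpa1* with *Gm5643*, *Hnrnpa3* with *Gm6793*, *Hnrnpm* with *March2*, *Hnrnpul1* with *Ccdc97* and *Sf3a2* with *Dot1l*. In the GENCODE annotation of mm9, 13 members share exon bases with another annotated gene on either strand, among them *Srsf1* and *Srsf2*. For 17 members, at least 50% of the coding sequence was found again elsewhere in the genome at 95% identity or more. *Hnrnpa3* had 24 such copies and *Hnrnpa1* 8, and the best copy of each matched at 100%. How the authors treated reads that map to several places is not given in the sources used here, so these values are uncertain. The 17 genes with a copy and the 30 without had like log2 ratios, with median sizes of 0.041 and 0.054. Of the 18 members above 1 FPKM with none of these limits, 0 passed 1.2-fold, and their median log2 ratio was 0.0073. The span of the deposited locus also overlaps another annotated gene for 22 members, among them *Hnrnpa2b1* with *Cbx3* and *Nfe2l3*, *Sf3b2* with *Pacs1* and *Srsf11* with *Lrrc40*, and both members past 1.1-fold, *Hnrnpr* and *Snrpd3*. Without these as well, 12 members above 1 FPKM remained, of which 0 passed 1.2-fold, with a median log2 ratio of -0.0024.

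The members' promoters were examined for base composition and for motifs, neither of which the choice by name used. RefSeq promoters (GRCm38.p6, 300 bp from each start) were matched for 43 of the 48 genes, with 57 promoters in all. CCGGAAG, the core motif bound by ETS factors, was found on either strand in 35.1% of them, in 15 of the 43 genes, against 16.0% of 12049 promoters of genes above 1 FPKM and 8.86% of all 32851 promoters. CGCATGCG, part of the motif of NRF1, was in 7.02%, or 4 promoters of 3 genes, against 3.62% and 1.87%. TATAAA was in 10.5%, against 7.52% and 13.6%. GCCATNTT, in which N is any base, was in 8.77%, against 7.83% and 6.05%. The median number of CpG dinucleotides was 26, against 20 and 7, and the median share of G and C was 61%, against 60.3% and 52.7%. These are matches of letters, and no binding was measured.

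A fixed list of 168 other splicing genes was examined beside the members, and 159 of them were above 1 FPKM. In this list 8 genes were at least 1.2-fold higher and 7 at least 1.2-fold lower in miR-21-/- glands, against 13% and 17.1% of named loci above 1 FPKM. With equal sums over named loci these counts were 21 higher and 4 lower, a scaling under which named loci were not counted. Several groups of the list had no gene past 1.2-fold. All 32 snRNP proteins named otherwise lay within 1.2-fold, as did all 14 genes of 3′ splice site and branch point recognition, all 7 of the LSm ring, all 9 of the exon junction complex and all 12 of Sm ring assembly. In the LSm ring, which binds the U6 RNA, 4 of the 7 genes passed 1.1-fold, against 51.4% of named loci above 1 FPKM. The median size in this ring was 0.14, close to that of the same loci. *U2af2*, the large subunit of the factor that reads the polypyrimidine tract, was at 58.91 FPKM in miR-21+/+ and 58.93 FPKM in miR-21-/- glands, values of a locus merged with *Ccdc106*. *Prpf8*, the core protein of the U5 snRNP, was at 40.4 and 37.1 FPKM, a log2 ratio of -0.12. Both were named after their values were seen. Of the 24 genes of the catalytic core and helicases 1 was higher and 1 lower past the limit, as were 1 and 1 of the 20 hnRNP-type proteins named otherwise, and of the 15 SR-related proteins and SR kinases 0 were higher and 1 lower.

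Of the 15 other splicing genes past 1.2-fold, 10 were among the 26 genes above 1 FPKM of a list named tissue-restricted regulators. The 10 were 38.5% of the 26, against 30% of named loci above 1 FPKM. The name does not hold for every gene of this list. It includes *Rbm39*, at 117 and 121 FPKM, and *Ptbp1*, at 63.3 and 65.7 FPKM, both within 1.2-fold. *Rbm20*, a regulator of titin splicing in striated muscle, had the largest difference, at 1.85 FPKM in miR-21+/+ and 7.63 FPKM in miR-21-/- glands, a log2 ratio of 2.04 that was 1.60 with a pseudocount of 1 FPKM. *Rbm24*, also a regulator of muscle splicing, was at 1.41 and 2.35 FPKM, a log2 ratio of 0.73 that was 0.47 with the same pseudocount. With equal sums over all loci the log2 ratios of *Rbm20* and *Rbm24* were 1.41 and 0.10. As deposited, the 7 skeletal muscle markers were all higher as well, from 1085 FPKM in sum to 1779 FPKM. Their log2 ratios were 0.48 to 1.86, and none was at 0. The scaling to equal sums over all loci shifts these by -0.63 too, so the lowest changes direction. *Srpk3*, an SR protein kinase of muscle, was lower, at 2.27 and 1.58 FPKM, a log2 ratio of -0.53 that was -0.35 with the pseudocount. The part of muscle tissue in these values was not tested, and in whole tissue a different number of cells and a different amount of RNA per cell cannot be told apart.

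The epithelial splicing regulators *Esrp1* and *Esrp2* were both higher in miR-21-/- glands as deposited. With equal sums over all loci, however, their log2 ratios were -0.17 and 0.010. *Esrp1* was at 11.1 and 15.3 FPKM and *Esrp2* at 5.67 and 8.84 FPKM, log2 ratios of 0.46 and 0.64. As deposited, 4 of the 5 luminal epithelial markers were at least 1.2-fold higher, against 13% of named loci above 1 FPKM. The 5 markers summed to 568 FPKM in miR-21+/+ and 780 FPKM in miR-21-/- glands, with log2 ratios of 0.15 to 0.95. All 5 myoepithelial markers were higher too, from 298 to 481 FPKM in sum. Without *Krt14*, whose locus is merged with *Krt16*, the sum went from 275 to 442 FPKM. Equal sums over all loci shift the log2 ratios of both marker lists by -0.63 as well, so the lowest luminal ratio also changes direction. The part of epithelial content in the values of *Esrp1* and *Esrp2* was not tested. *Khdrbs3*, which encodes a relative of the RNA-binding protein Sam68, was at 4.44 and 8.66 FPKM (0.96).

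On the lower side, *Celf4*, a neuronal member of the CELF family, was at 1.85 and 0.833 FPKM, a log2 ratio of -1.15 that became -0.64 after adding 1 FPKM to each value. *Nova1*, best known from neurons, was at 6.51 and 5.07 FPKM (-0.36), while the 4 neuronal markers were all under the minimum, with sums of 0.762 and 0.458 FPKM. *Celf2* was at 22.3 and 16.9 FPKM (-0.40) and *Rbm38* at 9.54 and 7.42 FPKM (-0.36). All 5 B lymphocyte and all 5 T lymphocyte markers were lower. The B lymphocyte marker *Cd79a*, in a locus merged with *Arhgef1*, was at 70.3 and 48.3 FPKM, and the other 4 summed to 29.1 and 4.62 FPKM, with log2 ratios of -3.40 to -2.09. T lymphocyte markers summed to 34.6 and 8.18 FPKM. The part of lymphocytes in the values of *Celf2* and *Rbm38* was not tested. In the catalytic core and helicases, *Plrg1*, a subunit of the Prp19 complex, was at 26.3 and 19.8 FPKM (-0.41), and *Dhx32* was at 10.5 and 14.3 FPKM (0.44).

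**Figure D4:**
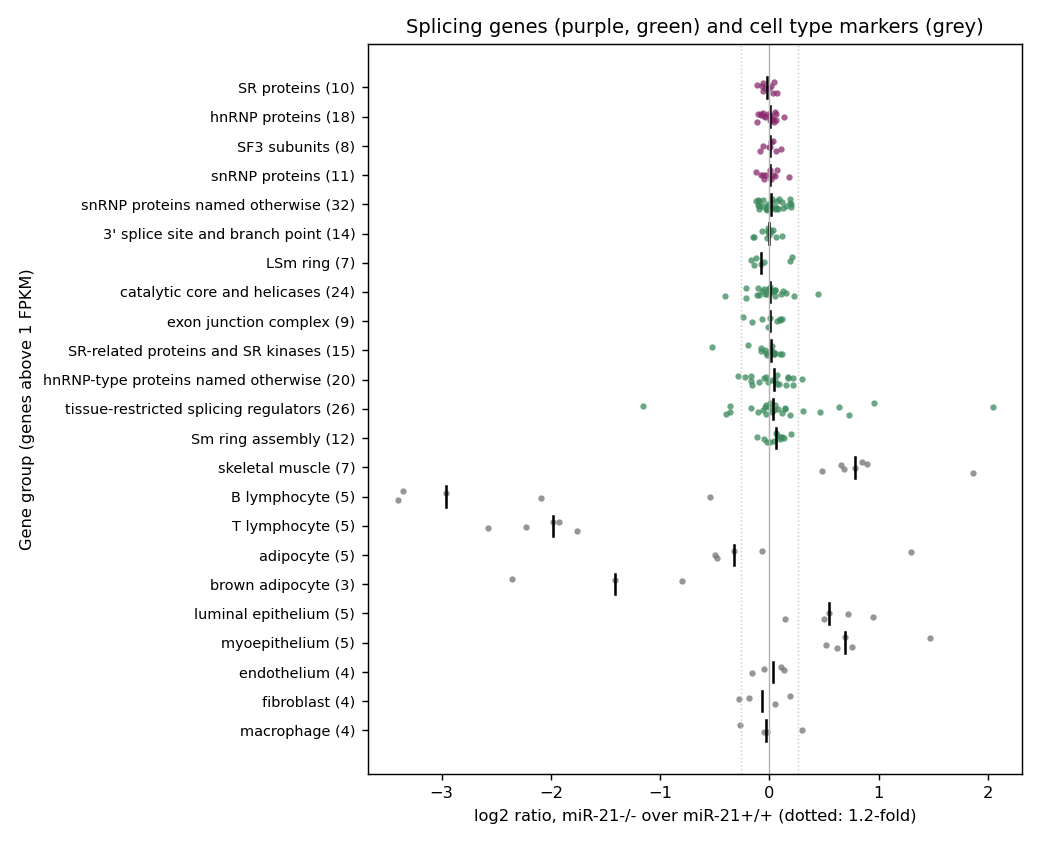
log2 ratios of miR-21-/- over miR-21+/+ glands (horizontal axis) of single genes above 1 FPKM, by gene group (vertical axis, number of genes in brackets). Points are genes, black bars group medians and dotted lines 1.2-fold, with the splicing factor members in purple, the other splicing genes in green and cell type markers in grey. All members lie within the dotted lines, and the B lymphocyte markers reach -3.40.

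As deposited, each of the 10 marker lists with genes above 1 FPKM had a larger median size of log2 ratio than the members. It ran from 0.12 in endothelial markers to 2.96 in B lymphocyte markers, against 0.052 in the members. Most of the other splicing lists also had a larger median size than the members. Over these splicing lists it ran from 0.022 in 3′ splice site and branch point recognition to 0.16 in hnRNP-type proteins named otherwise. Besides the list at 0.022, only SR-related proteins and SR kinases, at 0.046, had a smaller median size than the members. Brown fat markers were lower, with log2 ratios of -2.35 to -0.80. The 5 adipocyte markers summed to 16250 FPKM in miR-21+/+ and 12365 FPKM in miR-21-/- glands, a sum carried by *Fabp4*, *Cfd* and *Adipoq*, which were lower, while *Plin1* had a log2 ratio of -0.071 and *Lep*, the gene of the hormone leptin, was higher at 27.7 and 67.9 FPKM (1.29). The 4 endothelial markers lay between -0.16 and 0.14, the 4 fibroblast markers between -0.27 and 0.19 and the 4 macrophage markers above 1 FPKM between -0.26 and 0.30. The 47 splicing factor genes, at -0.12 to 0.18, covered a range that held 56.0% of the named loci above 10 FPKM.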

How the data were processed

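RNA-Seq libraries of poly(A) RNA from mammary tissue of 4 mice, 2 miR-21+/+ and 2 miR-21-/-, were analysed. The authors mapped single-end reads with TopHat to mm9 and estimated FPKM with Cufflinks. In the 1 Cuffdiff table they deposited, an FPKM value stands for both mice of its genotype. Program versions, gene annotation and normalization options are not given in the sources used here. The table also has 6 columns of the authors' own comparison (status, fold change, test statistic, p-value, q-value and call), which were not used. The 2 labelled groups were compared by their 2 FPKM columns as deposited.

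Log2 ratios were computed without a pseudocount for loci with a mean above 1 FPKM. A gene was counted at 1.2-fold or more. The members, lists and limits were chosen with earlier results of these data known. Each gene name took the locus with the highest mean FPKM. Any member could be named. Those given in full were, in each class, the 3 highest by level and the 2 highest and 2 lowest by log2 ratio, together with all members past 1.2-fold or with a miR-21 site, and the 6 most changed other splicing genes in each direction. The depth is unknown. In 3294 loci of low level, at most 14 shared a log2 ratio, so no steps of whole reads were seen. Locus starts count from 0 in the table, since 8295 matched annotated starts after adding 1 and 477 as printed, and are given counting from 1. Sites were searched in the longest 3′ UTR of each gene in GENCODE for mm9, and copies of coding sequences with blastn 2.17.0. The calculations, tested on simulated data, used Python 3.11.15, numpy 2.4.6, pandas 2.3.3 and matplotlib 3.10.9. The alternatives were pseudocounts of 1 and 0.1 FPKM, 3 scalings, other FPKM minimums and fold limits, summed rows of a name, and merged loci left out. Leaving out loci with overlaps, copies or other genes in their span and a minimum of 10 FPKM were added after seeing the data.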

Additional observations from a re-analysis of the deposited data

How the results depend on the processing

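No paired analysis was possible because both mice of a genotype share 1 value. The planned fits that leave out each mouse or use the replicate number as a block were therefore not run. The spread between mice and the depth are unknown, so a difference of the size seen in the members cannot be set against either. A log2 ratio or median was said to move when it changed by over 0.14 on the log2 scale, 0.5 times the interquartile range of named loci. A count was said to move when it changed from 0 or by more than 1.5-fold.

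Equal sums over all loci moved every log2 ratio, median and count followed here. All 47 members were then past 1.2-fold, all lower, with a median of -0.63, and the class medians were -0.65 for SR proteins, -0.63 for hnRNP proteins, -0.62 for SF3 subunits and -0.62 for snRNP proteins. Of the other splicing genes 155 were past the limit, with a median of -0.62, and *Esrp1* (-0.17) and *Dhx32* (-0.19) changed direction. This follows from the shift of -0.63 that the scaling gives every locus. Equal sums over named loci put 1 member (*Snrpd3*) and 25 other splicing genes past the limit. Without an FPKM minimum 1 member (*Srsf12*) passed it. At 1.1-fold the counts were 2 of the 47 members and 47 of the 159 other genes, against 51.4% of named loci above 1 FPKM. They were 5 and 2 other genes at 1.5-fold and 2-fold, where no member passed. Named loci were not counted at 1.5-fold and 2-fold, without an FPKM minimum or under the scalings. The count of members was 0 under the other alternatives run.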

Other observations

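The genes of this paragraph were chosen after their values were seen. Among the proteins of the U1 snRNP that the member rule does not cover, *Snrnp70* was at 88.7 FPKM in miR-21+/+ and 102 FPKM in miR-21-/- glands, *Luc7l* at 23.0 and 26.3 FPKM and *Luc7l3* at 39.0 and 44.5 FPKM, with log2 ratios of 0.20, 0.20 and 0.19. *Luc7l2* was at 64.4 and 60.5 FPKM (-0.090). The cold-inducible RNA-binding proteins *Rbm3* and *Cirbp* were at 110 and 122 FPKM and at 31.6 and 35.6 FPKM, with log2 ratios of 0.15 and 0.17, the latter in a locus merged with another gene. In the hnRNP-type proteins named otherwise, 11 of 20 genes passed 1.1-fold, against 51.4% of named loci above 1 FPKM, and the ends of their range were *Taf15*, at 41.2 and 33.7 FPKM (-0.29), and *Pcbp4*, at 10.8 and 13.3 FPKM (0.30). With equal sums over all loci the log2 ratios of all these genes were below 0.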
